A study of Mus musculus with 16 samples.

Results

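Histone genes are described here across 16 bead arrays of mouse osteoblasts transfected with siRNAs to Bicc1. A gene was taken as a histone gene when its symbol began with one of the standard histone prefixes (the Hist1h to Hist4h series, H1f, H2af, H2ac, H2bc, H2az, H3f, H3c, H4c or H4f). It also had to be detected on at least 4 of the 16 arrays. Of 58 such genes on the array, read by 65 probes, 42 were detected, among 9560 genes or unnamed probes tested in all. The 42 comprised 38 replication-dependent genes (12 for H2A, 10 for H2B, 7 for H3, 8 for H4 and 1 for H1) and 4 replication-independent variants (H2az1, H3f3a, H3f3b and H1f10). The remaining 16 were not detected, among them H1f1, H1f3, H1f4 and H1f5, and the testis genes H1f6, H2ac1 and H2bc1. Because detection was asked of any 4 arrays, a gene could enter through a group in which it was high, and 39 of the 42 were detected on all 16 arrays. H2ac4 and H2bc8 were detected on 15 arrays and H4c14 on 9, so their values lie near background.

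The cells were primary osteoblasts released by collagenase from the calvaria, the roof of the skull, of C57BL6/J neonates aged 3 to 9 days, with both sexes mixed. They were plated at 150000 cells per well and transfected with Lipofectamine 2000, and total RNA was taken after 48 hours. The 4 groups of 4 arrays received a scrambled control siRNA (SC) or 1 of 3 siRNAs named BICC1_1, BICC1_2 and BICC1_3, and no other treatment or allele is labelled. Arrays are numbered 1 to 4 within a group by their replicate label. The labels do not say whether the 4 replicates of a group were separate cultures, so p-values measure only the spread between arrays, which may be technical. Bicc1, which encodes an RNA-binding protein, stood at 53.7% of SC with BICC1_1 and at 33.3% with BICC1_2 (adjusted p = 0.0345 and 7.98e-06). It stood at 93.3% of SC on the arrays labelled BICC1_3 (adjusted p = 0.776), so that group is named by its label only. The labels call the cells osteoblasts, and 6 of 12 listed osteoblast markers were among the genes tested, namely Col1a1, Col1a2, Sp7, Alpl, Sparc and Cdh11. The other 6 markers, Runx2, Ibsp, Bglap, Spp1, Dlx5 and Postn, were not among them.

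Nucleosomes wrap DNA around an octamer in which H2A pairs with H2B and H3 pairs with H4, and the linker histone H1 binds where the DNA enters and leaves. Replication-dependent histone genes lie in clusters without introns, are transcribed in S phase to package newly made DNA, and end in a conserved stem-loop instead of a poly(A) tail. Variant histones such as H2A.Z, H3.3 and H1.10 are made throughout the cell cycle from polyadenylated transcripts and replace the canonical proteins outside replication. Non-dividing and differentiating cells are known to make polyadenylated copies of some clustered histone genes as well. The labelling kit named for these arrays copies RNA from its poly(A) tail, and how much stem-loop-ended histone RNA entered the label was not tested. Clustered histone genes of a family are nearly identical in sequence, so a probe for a given gene may also read its relatives, and the identity of single genes within a family is uncertain. In RNA from whole cultures, fewer cells in S phase and less histone RNA per cell cannot be told apart.

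Of the 38 clustered genes, 31 lie on chromosome 13 and 7 on chromosome 3. The variants H2az1, H3f3a, H3f3b and H1f10 lie on chromosomes 3, 1, 11 and 6. The annotated spans of the H2A genes ran from 452 to 558 bases, those of the H4 genes from 383 to 435 and those of the clustered H3 genes from 492 to 911. Those of the H2B genes ran from 448 to 37455, the longest being H2bc6, with H2bc4 at 8282. Promoter windows from RefSeq (assembly GRCm38.p6), running from 250 bases before to 50 bases after the transcription start, were found for 38 of the 42 genes. H2bc4, H3c1, H3c7 and H4c14 were without one. Shown are the windows of the 4 H2A genes that were among the lowest on the arrays described further on and that start back to back with a detected H2B gene, beside the window of the variant H3f3b. They were chosen after the values were seen. Capitals mark matches on either strand to CCAAT (the box bound by NF-Y), to the TATA box TATAAA, to the octamer bound by Oct-1 (written ATTTGCAT) or to an E2F-type site (written TTTCGCGC). None of the 4 motifs contains another. The window of H2ac11 holds no TATAAA, unlike the other 4 shown.
H2ac7, chr13:23574131-23574430, plus strand: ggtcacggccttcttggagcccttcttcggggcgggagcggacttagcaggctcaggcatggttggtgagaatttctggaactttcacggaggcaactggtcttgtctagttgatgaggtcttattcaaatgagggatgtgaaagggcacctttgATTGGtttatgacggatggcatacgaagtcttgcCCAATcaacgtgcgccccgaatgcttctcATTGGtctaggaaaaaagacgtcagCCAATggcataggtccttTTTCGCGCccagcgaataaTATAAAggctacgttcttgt
H2ac11, chr13:22042900-22043199, minus strand: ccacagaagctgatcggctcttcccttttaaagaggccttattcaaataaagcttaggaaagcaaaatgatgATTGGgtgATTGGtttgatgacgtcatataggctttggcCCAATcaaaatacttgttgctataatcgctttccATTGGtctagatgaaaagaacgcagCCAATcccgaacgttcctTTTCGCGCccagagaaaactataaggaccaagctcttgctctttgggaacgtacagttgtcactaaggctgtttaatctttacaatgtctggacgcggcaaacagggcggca
H2ac12, chr13:22035594-22035893, minus strand: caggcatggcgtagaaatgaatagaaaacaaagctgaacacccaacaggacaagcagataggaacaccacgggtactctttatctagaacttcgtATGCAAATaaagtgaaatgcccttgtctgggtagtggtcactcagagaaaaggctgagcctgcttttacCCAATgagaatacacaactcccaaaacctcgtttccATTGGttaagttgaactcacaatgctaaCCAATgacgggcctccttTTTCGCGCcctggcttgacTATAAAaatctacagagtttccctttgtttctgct
H2ac15, chr13:21753863-21754162, minus strand: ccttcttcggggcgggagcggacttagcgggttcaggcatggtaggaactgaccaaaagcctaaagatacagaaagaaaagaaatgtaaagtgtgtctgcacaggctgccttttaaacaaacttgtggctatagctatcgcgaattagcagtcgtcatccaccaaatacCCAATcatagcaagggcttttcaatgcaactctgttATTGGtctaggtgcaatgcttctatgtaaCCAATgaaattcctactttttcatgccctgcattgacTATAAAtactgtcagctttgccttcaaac
H3f3b, chr11:116024455-116024754, minus strand: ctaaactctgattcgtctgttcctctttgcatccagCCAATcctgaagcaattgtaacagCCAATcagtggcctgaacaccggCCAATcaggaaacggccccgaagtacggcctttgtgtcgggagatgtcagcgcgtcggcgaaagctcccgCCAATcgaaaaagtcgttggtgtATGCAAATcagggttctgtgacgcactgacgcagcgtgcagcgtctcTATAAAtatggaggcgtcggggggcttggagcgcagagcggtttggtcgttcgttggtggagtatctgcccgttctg

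Among clustered genes, the letters CCAAT were present in 12 of 12 H2A, 10 of 10 H2B, 5 of 5 H3 and 1 of 7 H4 windows, against 37.4% of all 32851 promoter windows. The 10 H2B windows come from 9 genes, since H2bc6 has 2. TATAAA was present in 9 H2A, 4 H2B, 1 H3 and 6 H4 windows, against 13.6% of all windows. The octamer was present in 4 H2A and 5 H2B windows and in 0 H3 and 0 H4 windows of clustered genes (1.74% of all windows). The E2F-type site was present in 5 H2A and 3 H2B windows (0.323% of all windows). All 5 H2A genes with it (H2ac7, H2ac10, H2ac11, H2ac12 and H2ac22) belong to the 9 H2A genes that stood lowest. Those 9 are most of the 12 H2A genes and were grouped after their values were seen. The site was present in 5 of their 9 windows and in 0 of the other 3, and its link to the values was not tested. Of the 4 variant windows 3 held CCAAT, 1 TATAAA, 1 the octamer and 0 the E2F-type site, and that of H3f3b held the first 3 of these. The windows of a back-to-back pair overlap and so share matches, and a match describes letters only.

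No histone gene passed the test in any comparison. Adjusted p stands throughout for limma's moderated test with Benjamini-Hochberg adjustment over all 9560 tested, at a threshold of 0.05, and values are log2 intensities after background correction and quantile normalisation. Against SC, 0 of 42 histone genes passed with BICC1_1, where 0.0209% of all genes passed in either direction, and 0 of 42 with BICC1_2 (0.0523% of all genes). For the arrays labelled BICC1_3 and for the mean of the 3 siRNAs the counts were also 0 of 42, and the share of all genes was 0.0105% in both. At an unadjusted p under 0.05 the counts were 0, 1, 0 and 1 histone genes for BICC1_1, BICC1_2, the arrays labelled BICC1_3 and the mean, the gene being H2bc6 with BICC1_2 and H2ac4 in the mean. Over all genes these unadjusted counts were 589, 501, 883 and 640. With so few genes past the test anywhere, a count of 0 among 42 is at the background. The 4 comparisons share the SC arrays.

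As a class, replication-dependent genes lay below SC with BICC1_1 and on the arrays labelled BICC1_3, and the variants lay below SC there too. Of 38 replication-dependent genes, 35 lay below 0 with BICC1_1 (median -0.14 log2), 18 with BICC1_2 (median 0.03) and 35 on the arrays labelled BICC1_3 (median -0.25). Of the 4 variants, 4, 1 and 4 lay below 0 (medians -0.13, 0.01 and -0.12). The medians over all genes were 0.00, 0.00 and -0.01. The gap between the classes, replication-dependent minus variant, was thus -0.01, 0.02 and -0.13 log2, and -0.02 in the mean of the siRNAs. Without 3 arrays described next, the replication-dependent medians were -0.04, 0.07 and -0.04 and the variant medians -0.11, 0.01 and -0.03.

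The arrays were not alike within their groups. Array 1 labelled BICC1_3 and array 3 of BICC1_1, and to a smaller degree array 3 of BICC1_2, had low ribosomal protein and respiratory chain transcripts. The median of 34 NADH dehydrogenase subunit genes lay at -1.44, -0.74 and -0.22 log2 from the SC mean on these 3 arrays, and between -0.03 and 0.06 on the other 13. The median of 51 ribosomal protein genes lay at -0.80, -0.49 and -0.10, and between -0.08 and 0.03 on the other 13. Across arrays the median raw intensity ran from 84.8 to 111.3 and the number of probes detected from 11990 to 12863. The summed intensity of 4 tested of 9 endothelial markers was 513 to 785 on the arrays labelled BICC1_3, against 804 to 847 in SC, 736 to 909 with BICC1_1 and 775 to 792 with BICC1_2. Its median lay at -0.72 log2 on array 1 labelled BICC1_3. Of the 10 macrophage, 7 skeletal muscle, 5 osteoclast and 3 chondrocyte markers tested, 0 passed the test against SC. The summed intensity of the macrophage markers (10 tested of 15) was 16435 to 19770 in SC, 17197 to 28115 with BICC1_1, 14628 to 18691 with BICC1_2 and 18822 to 21960 on the arrays labelled BICC1_3. Among them Tyrobp, which encodes a signalling adaptor of myeloid cells, lay at -1.60, -0.51 and -0.35 log2 on the 3 arrays. It lay between -0.19 and 0.33 on the other 13. Mrc1 went the other way on the 3 arrays, at 0.15, 0.71 and 0.42, against -0.14 to 0.42 on the other 13. Ctss lay at -0.23, 0.11 and 0.06 on the 3 arrays, and the median of the 10 macrophage markers at -0.21, 0.25 and 0.05. The summed intensity of the skeletal muscle markers (7 of 13) was 1797 to 2512 in SC, 2205 to 2598, 2495 to 2966 and 1884 to 2384. The part of these shifts in the histone values was not tested, and the main histone results are given with and without the 3 arrays.

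Clustered H2A genes varied most from array to array. The median of the 12 genes lay at -2.50 log2 on array 1 labelled BICC1_3, which is 17.6% of the SC mean, at -1.67 (31.4%) on array 3 of BICC1_1 and at -0.71 (61.0%) on array 3 of BICC1_2. It lay between -0.03 and 0.05 on the SC arrays and between -0.30 and 0.09 on the other 9 siRNA arrays. On the 2 lowest arrays 10 and 9 of 12 H2A genes lay more than 1 log2 below the SC mean, where 4.68% and 1.18% of all genes did. On array 3 of BICC1_2 it was 0 of 12, against 0.0418% of all genes. All 12 lay below the lowest SC array on each of these 3 arrays. Among all 9560 genes, 3659 did so on array 1 labelled BICC1_3, 3317 on array 3 of BICC1_1 and 2771 on array 3 of BICC1_2. For the other clustered families the numbers over 1 log2 below the SC mean on the 2 arrays were 4 and 0 of 10 H2B genes, 1 and 0 of 7 H3 genes and 3 and 1 of 8 H4 genes, and for the variants 0 and 0 of 4.

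**Figure D1:**
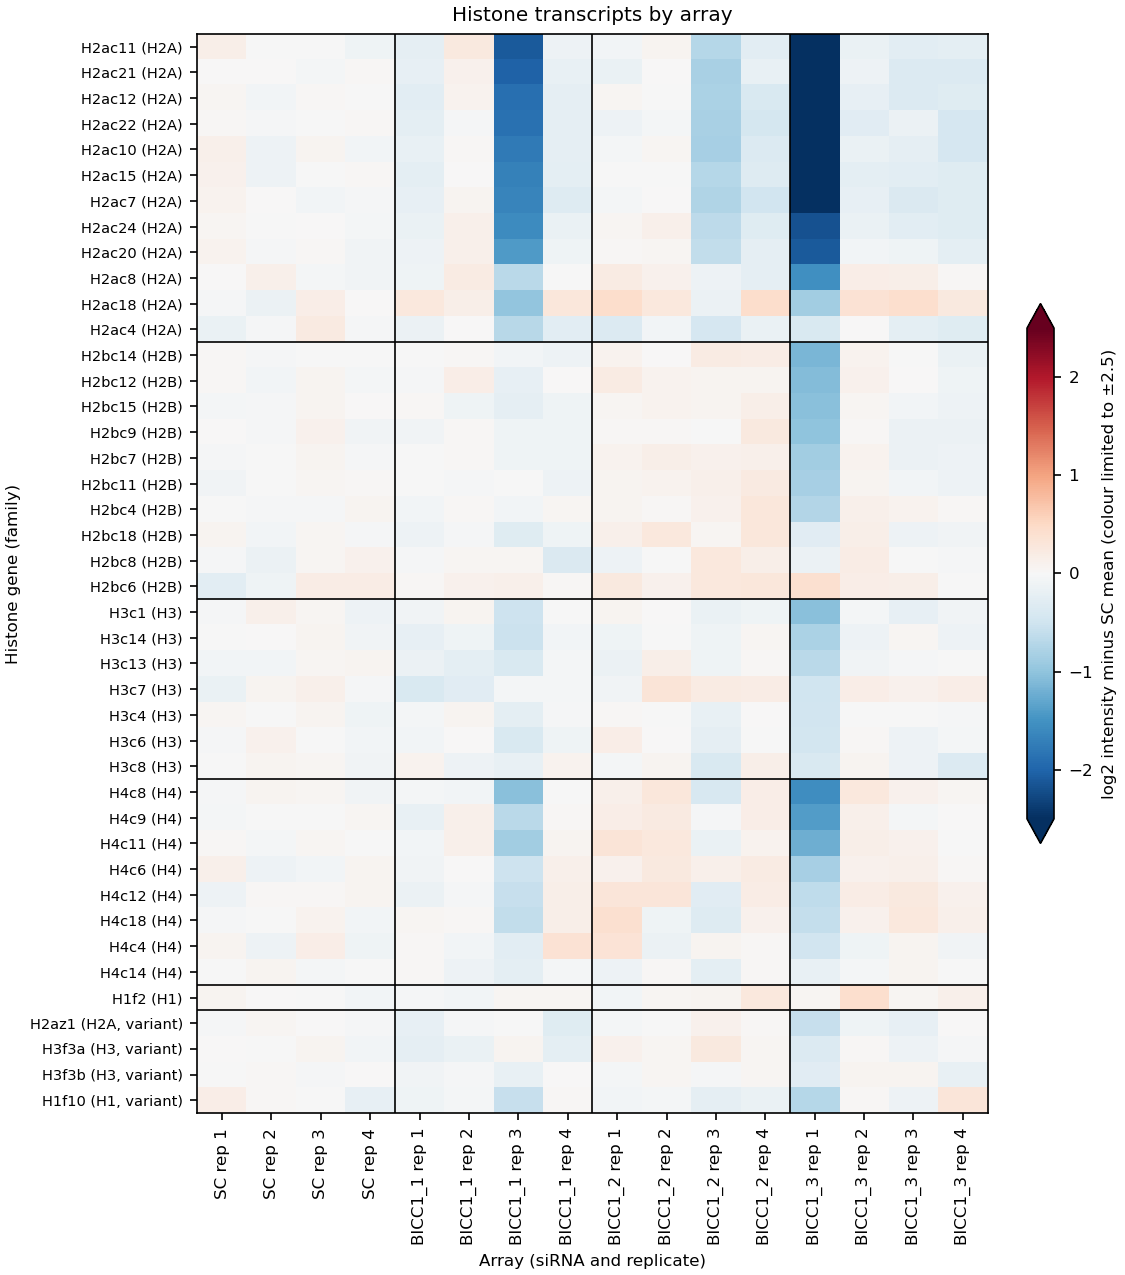
Each row is a histone gene with its family and each column an array, and colour gives the log2 intensity minus the SC mean, limited to 2.5 either way. The darkest cells are the upper H2A rows on array 1 labelled BICC1_3 and array 3 of BICC1_1, with a paler column at array 3 of BICC1_2, while the H2B rows are pale on all arrays but the first of these.

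The largest mean differences from SC among replication-dependent genes were those of H2ac22, H2ac21, H2ac12 and H2ac11. H2ac22 gave log2 intensities of 12.32, 12.27, 12.28 and 12.32 on SC replicates 1 to 4, 12.05, 12.28, 10.43 and 12.07 with BICC1_1, 12.17, 12.25, 11.49 and 11.86 with BICC1_2 and 9.74, 12.01, 12.15 and 11.88 on the arrays labelled BICC1_3. Every array of BICC1_2 and every array labelled BICC1_3 lay below every SC array, and 1 array in each siRNA group lay far below the rest. H2ac22 averaged 12.30 ± 0.03 (SD, n = 4) in SC and 11.71 ± 0.86, 11.94 ± 0.34 and 11.45 ± 1.15 in the siRNA groups. Differences of H2ac22 from SC were -0.59, -0.35 and -0.85 log2 (SE 0.45, adjusted p = 0.941, 1.00 and 0.571). H2ac21 gave log2 intensities of 8.98, 8.99, 8.92 and 9.01 on SC replicates 1 to 4, 8.77, 9.07, 6.95 and 8.78 with BICC1_1, 8.82, 8.98, 8.17 and 8.79 with BICC1_2 and 6.32, 8.85, 8.63 and 8.63 on the arrays labelled BICC1_3. The SC arrays lay close together, all arrays labelled BICC1_3 lay below them, and array 2 of BICC1_1 lay above them. H2ac21 averaged 8.98 ± 0.04 (SD, n = 4) in SC and 8.39 ± 0.97, 8.69 ± 0.36 and 8.11 ± 1.20 in the siRNA groups. Differences of H2ac21 from SC were -0.58, -0.29 and -0.87 log2 (SE 0.49, adjusted p = 0.947, 1.00 and 0.590).

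H2ac12 gave log2 intensities of 12.34, 12.21, 12.32 and 12.27 on SC replicates 1 to 4, 12.03, 12.36, 10.40 and 12.05 with BICC1_1, 12.33, 12.28, 11.49 and 11.90 with BICC1_2 and 9.69, 12.08, 11.94 and 11.98 on the arrays labelled BICC1_3. Array 2 of BICC1_1 lay above all SC arrays, beside a replicate of the same siRNA that lay far below. Differences of H2ac12 from SC were -0.57, -0.28 and -0.86 log2 (SE 0.47, adjusted p = 0.943, 1.00 and 0.573). H2ac11 gave log2 intensities of 9.78, 9.62, 9.62 and 9.52 on SC replicates 1 to 4, 9.42, 9.87, 7.54 and 9.50 with BICC1_1, 9.58, 9.70, 8.92 and 9.38 with BICC1_2 and 6.70, 9.47, 9.38 and 9.38 on the arrays labelled BICC1_3. This gene had the lowest relative level of any histone gene, 13.1% of the SC mean on array 1 labelled BICC1_3 and 23.4% on array 3 of BICC1_1, and array 2 of BICC1_1 lay above all SC arrays. H2ac11 averaged 9.64 ± 0.11 (SD, n = 4) in SC and 9.08 ± 1.05, 9.40 ± 0.34 and 8.73 ± 1.35 in the siRNA groups. Differences of H2ac11 from SC were -0.55, -0.24 and -0.90 log2 (SE 0.54, adjusted p = 0.963, 1.00 and 0.593). The 95% interval of the difference for the arrays labelled BICC1_3 ran from -2.04 to 0.24, so neither a large fall nor no change lies outside it. For these 4 genes the SD within each siRNA group was wider than in SC.

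H2ac24, in the chromosome 13 cluster, and H2ac20, on chromosome 3, were chosen for their high probe intensity, which does not order transcripts by abundance. H2ac24 gave log2 intensities of 14.28, 14.23, 14.24 and 14.19 on SC replicates 1 to 4, 14.07, 14.35, 12.66 and 14.08 with BICC1_1, 14.28, 14.35, 13.58 and 13.93 with BICC1_2 and 12.05, 14.08, 13.97 and 13.94 on the arrays labelled BICC1_3. For BICC1_1 and BICC1_2 the arrays overlapped SC, while the arrays labelled BICC1_3 all lay below SC. H2ac24 averaged 14.23 ± 0.04 (SD, n = 4) in SC and 13.79 ± 0.76, 14.03 ± 0.36 and 13.51 ± 0.97 in the siRNA groups. Differences of H2ac24 from SC were -0.44, -0.20 and -0.73 log2 (SE 0.40, adjusted p = 0.954, 1.00 and 0.578). H2ac20 gave log2 intensities of 14.12, 13.99, 14.05 and 13.94 on SC replicates 1 to 4, 13.90, 14.16, 12.61 and 13.92 with BICC1_1, 14.05, 14.08, 13.41 and 13.81 with BICC1_2 and 11.93, 13.96, 13.91 and 13.78 on the arrays labelled BICC1_3. Here array 2 labelled BICC1_3 reached into the SC range. H2ac20 averaged 14.02 ± 0.08 (SD, n = 4) in SC and 13.65 ± 0.70, 13.84 ± 0.31 and 13.40 ± 0.98 in the siRNA groups. Differences of H2ac20 from SC were -0.37, -0.19 and -0.63 log2 (SE 0.39, adjusted p = 0.965, 1.00 and 0.594). Without the 3 arrays the differences were -0.07, -0.05 and -0.24 for H2ac24 and -0.03, -0.05 and -0.14 for H2ac20.

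Of the other H2A genes some showed the same pattern and some did not. H2ac10, H2ac7 and H2ac15 ranged from 10.19 to 12.86, 10.10 to 12.68 and 9.99 to 12.61, with their lowest values on array 1 labelled BICC1_3 (17.2%, 17.8% and 17.5% of the SC mean). Together with the 6 genes above they make 9 H2A genes, from both clusters, that lay between -2.93 and -2.09 log2 on that array, between -2.10 and -1.41 on array 3 of BICC1_1 and between -0.83 and -0.61 on array 3 of BICC1_2. On the SC arrays the 9 genes stayed between -0.13 and 0.14. These 9 were grouped after their values were seen. H2ac8 ranged from 5.45 to 7.19 and lay at -1.53, -0.67 and -0.12 on the 3 arrays. H2ac4, near background, ranged from 5.28 to 6.19. H2ac4 gave log2 intensities of 5.81, 5.94, 6.19 and 5.94 on SC replicates 1 to 4, 5.83, 5.97, 5.28 and 5.71 with BICC1_1, 5.63, 5.91, 5.54 and 5.80 with BICC1_2 and 5.60, 5.97, 5.73 and 5.68 on the arrays labelled BICC1_3. Its lowest value came from array 3 of BICC1_1, and on array 1 labelled BICC1_3 it lay at -0.37 log2, well above the 9 genes. H2ac4 averaged 5.97 ± 0.16 (SD, n = 4) in SC and 5.70 ± 0.30, 5.72 ± 0.16 and 5.74 ± 0.16 in the siRNA groups. Differences of H2ac4 from SC were -0.27, -0.25 and -0.23 log2 (SE 0.14, adjusted p = 0.822, 1.00 and 0.594). In the mean of the siRNAs H2ac4 lay at -0.25 (unadjusted p = 0.0383, adjusted p = 0.736).

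H2ac18, on chromosome 3, went the other way on most siRNA arrays. H2ac18 gave log2 intensities of 8.47, 8.37, 8.68 and 8.51 on SC replicates 1 to 4, 8.78, 8.64, 7.52 and 8.79 with BICC1_1, 8.94, 8.77, 8.35 and 8.95 with BICC1_2 and 7.64, 8.87, 8.92 and 8.75 on the arrays labelled BICC1_3. Apart from the 3 low arrays and array 2 of BICC1_1, every siRNA array lay above the SC range. Without the 3 arrays H2ac18 lay above SC by 0.23, 0.38 and 0.34 log2 (SE 0.08) with BICC1_1, BICC1_2 and on the arrays labelled BICC1_3, with adjusted p = 0.320, 0.109 and 0.159. In the mean of the siRNAs it then lay at 0.32 (95% interval 0.18 to 0.45, adjusted p = 0.148), against 0.07 with all arrays (-0.43 to 0.57, adjusted p = 0.960). It did not pass the test either way.

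Complete separation from SC was seen for H2A genes on the arrays labelled BICC1_3. All 4 of these arrays lay below all 4 SC arrays for 8 of the 42 histone genes, where 3.53% of all genes did so, and the 8 were H2A genes (H2ac7, H2ac10, H2ac11, H2ac12, H2ac15, H2ac21, H2ac22 and H2ac24). The same 8 genes remained below SC when replicate 1 was left out, where 6.12% of all genes did. Their differences from SC without the 3 arrays ran from -0.29 (H2ac7, SE 0.11, adjusted p = 0.372) to -0.23 (H2ac11, SE 0.11), and the lowest adjusted p among them was 0.263 (H2ac21, -0.27, SE 0.08). With all arrays the differences of these 8 genes, whose probes may read each other's transcripts, ran from -0.90 (H2ac11) to -0.73 (H2ac24). With BICC1_1, 0 of 42 histone genes lay wholly below SC (2.67% of all genes) and 0 wholly above (3.68%). Without its replicate 3, H3f3a was the 1 gene below (4.93% of all genes) and 0 were above (7.4%). With BICC1_2, H2ac22 lay wholly below (2.73% of all genes, and 4.57% without replicate 3), and H2bc7, H2bc11 and H2bc12 wholly above (3.87%). On the arrays labelled BICC1_3, 0 genes lay wholly above SC (3.06%).

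H2B genes, whose products pair with H2A, stood closer to SC. Their median lay at -0.85 log2 (55.5% of the SC mean) on array 1 labelled BICC1_3, but at -0.09 on array 3 of BICC1_1 and at 0.10 on array 3 of BICC1_2. With BICC1_2 all 10 H2B genes lay above 0, with differences of 0.07 to 0.22, and 9 of 10 lay below 0 on the arrays labelled BICC1_3. H2bc6 gave log2 intensities of 6.25, 6.41, 6.70 and 6.70 on SC replicates 1 to 4, 6.54, 6.63, 6.65 and 6.54 with BICC1_1, 6.76, 6.62, 6.78 and 6.80 with BICC1_2 and 6.92, 6.67, 6.67 and 6.51 on the arrays labelled BICC1_3. Its lowest value was an SC array, so the SC spread was the widest of any group. H2bc6 averaged 6.51 ± 0.22 (SD, n = 4) in SC and 6.59 ± 0.05, 6.74 ± 0.08 and 6.69 ± 0.17 in the siRNA groups. Differences of H2bc6 from SC were 0.08, 0.22 and 0.18 log2 (SE 0.10, adjusted p = 0.970, 0.941 and 0.593). The unadjusted p with BICC1_2 was 0.0470. On array 1 labelled BICC1_3, where 9 of 10 H2B genes were low, H2bc6 stood at 133% of the SC mean. H2bc9 gave log2 intensities of 11.43, 11.39, 11.53 and 11.35 on SC replicates 1 to 4, 11.33, 11.45, 11.31 and 11.31 with BICC1_1, 11.46, 11.46, 11.42 and 11.66 with BICC1_2 and 10.42, 11.46, 11.28 and 11.27 on the arrays labelled BICC1_3. All groups overlapped SC, and array 1 labelled BICC1_3 stood apart. H2bc9 averaged 11.42 ± 0.08 (SD, n = 4) in SC and 11.35 ± 0.07, 11.50 ± 0.11 and 11.11 ± 0.47 in the siRNA groups. Differences of H2bc9 from SC were -0.07, 0.07 and -0.32 log2 (SE 0.16, adjusted p = 0.975, 1.00 and 0.559). They were -0.06, 0.10 and -0.09 without the 3 arrays.

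H2bc18 gave log2 intensities of 6.76, 6.63, 6.74 and 6.66 on SC replicates 1 to 4, 6.58, 6.67, 6.39 and 6.60 with BICC1_1, 6.83, 6.96, 6.74 and 6.99 with BICC1_2 and 6.42, 6.85, 6.58 and 6.61 on the arrays labelled BICC1_3. With BICC1_2 all 4 arrays lay above the SC mean. H2bc18 averaged 6.70 ± 0.06 (SD, n = 4) in SC and 6.56 ± 0.12, 6.88 ± 0.12 and 6.61 ± 0.18 in the siRNA groups. Differences of H2bc18 from SC were -0.14, 0.18 and -0.09 log2 (SE 0.09, adjusted p = 0.912, 1.00 and 0.728). Between siRNAs, H2bc18 was lower with BICC1_1 than with BICC1_2 by 0.32 log2 (SE 0.09, adjusted p = 0.289). H2bc4 gave log2 intensities of 12.43, 12.40, 12.40 and 12.51 on SC replicates 1 to 4, 12.37, 12.47, 12.37 and 12.48 with BICC1_1, 12.51, 12.46, 12.54 and 12.72 with BICC1_2 and 11.71, 12.56, 12.53 and 12.46 on the arrays labelled BICC1_3. H2bc4 was chosen for its high probe intensity, and array 1 labelled BICC1_3 was again the one low array. H2bc4 averaged 12.44 ± 0.05 (SD, n = 4) in SC and 12.42 ± 0.06, 12.55 ± 0.11 and 12.31 ± 0.41 in the siRNA groups. Differences of H2bc4 from SC were -0.01, 0.12 and -0.12 log2 (SE 0.14, adjusted p = 0.994, 1.00 and 0.750). They were 0.01, 0.13 and 0.08 without the 3 arrays, above 0 for each siRNA. A further, dimmer H2bc4 probe, detected on 7 arrays, lay at -0.49 there, against -0.73 for the brighter one. The remaining H2B genes ranged from 11.18 to 12.18 (H2bc7), 10.77 to 11.84 (H2bc11), 9.27 to 10.47 (H2bc15), 9.14 to 10.47 (H2bc14), 9.17 to 10.47 (H2bc12) and 5.46 to 6.07 (H2bc8). All but H2bc8 were lowest on array 1 labelled BICC1_3.

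Several H2A and H2B genes start back to back from a common stretch of DNA on chromosome 13, so each pair shares its promoter region. In 5 such pairs with both genes detected, the starts lay 164 to 249 bases apart. On array 3 of BICC1_1, H2ac11 lay at -2.10 log2 and its neighbour H2bc11 at -0.02. H2ac12 and H2bc12 lay at -1.88 and -0.21 there, H2ac15 and H2bc15 at -1.68 and -0.22, and H2ac7 and H2bc7 at -1.65 and -0.10. In each of these 4 pairs the H2A gene lay far below its neighbour. On array 1 labelled BICC1_3 both genes of a pair were low, H2ac11 at -2.93 with H2bc11 at -0.84 and H2ac7 at -2.49 with H2bc7 at -0.86. The gap, H2A minus H2B, ran from -2.10 to -1.46 log2 over these 4 pairs on that array, from -0.87 to -0.79 on array 3 of BICC1_2 and from -0.59 to 0.27 on the other 13 arrays. The fifth pair, H2ac8 and H2bc8, gave gaps of -0.72, -0.38 and -1.38 on array 3 of BICC1_1, array 3 of BICC1_2 and array 1 labelled BICC1_3, with H2bc8 near background. The windows printed above for H2ac7, H2ac11, H2ac12 and H2ac15 lie across these shared regions.

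**Figure D2:**
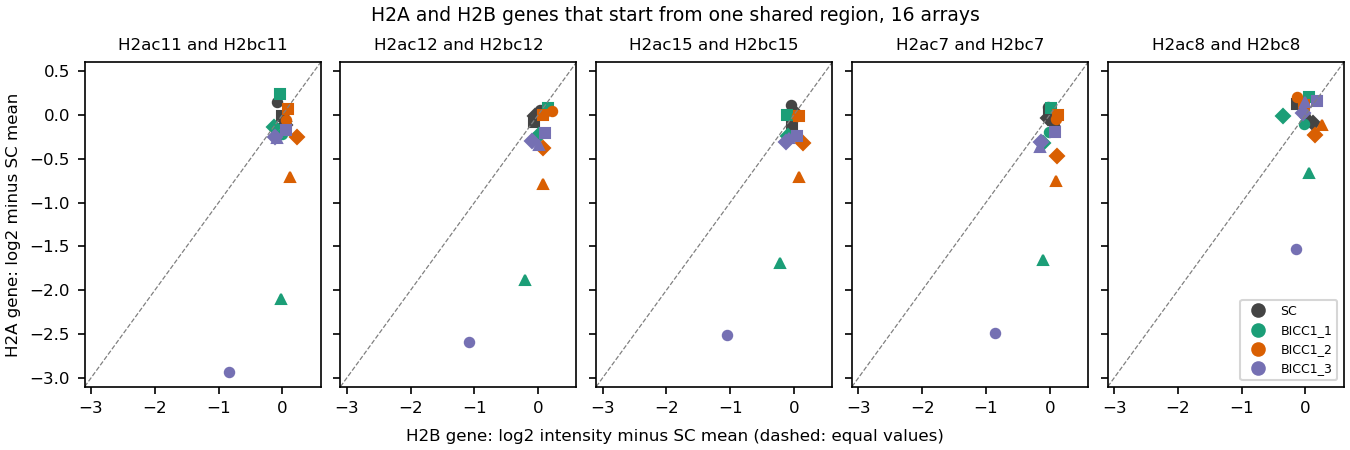
Each panel plots, for an H2A gene and the H2B gene that starts beside it, the log2 intensity minus the SC mean on 16 arrays, with marker shape giving the replicate (circle 1, square 2, triangle 3, diamond 4) and a dashed line of equal values. The points of BICC1_1 replicate 3 lie far below the line at an H2B value near 0, and those of BICC1_3 replicate 1 lie low on both axes.

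H4 and H3 genes, which form the core tetramer, moved less than H2A. The H4 median lay at -0.73 log2 on array 1 labelled BICC1_3, -0.60 on array 3 of BICC1_1 and -0.21 on array 3 of BICC1_2, and between -0.07 and 0.24 on the other 13. Its size depended on the processing. In the authors' own normalised values it lay at -0.31, -0.23 and -0.07 on these arrays, and the H2A median at -2.22, -1.56 and -0.67. As normalised here, H4c8 was the lowest, at 33.9%, 48.7% and 76.2% of the SC mean on these arrays, with a range of 6.84 to 8.68. H4c9, H4c11 and H4c6 ranged from 7.29 to 8.92, 7.01 to 8.55 and 7.39 to 8.46. H4c12, H4c18, H4c4 and H4c14 ranged from 6.27 to 7.21, 5.90 to 6.92, 5.87 to 6.70 and 5.32 to 5.65. With BICC1_2, 7 of 8 H4 genes lay above 0 (median 0.10), and without the 3 arrays the median was 0.18, with H4c12 at 0.26 (SE 0.08, adjusted p = 0.305) and H4c11 at 0.22 (SE 0.07, adjusted p = 0.357). Without its replicate 3, BICC1_2 lay wholly above SC for 9 histone genes, 4 of them H4 genes (H4c8, H4c9, H4c11 and H4c12), where 6.37% of all genes did so. For the arrays labelled BICC1_3 without replicate 1 these were H2ac18, H4c12 and H4c18 (5.38% of all genes).

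The H3 median lay at -0.49, -0.37 and -0.16 log2 on the 3 arrays and between -0.11 and 0.07 on the other 13. H3c1 was the lowest on array 1 labelled BICC1_3, at 48.7% of the SC mean, and ranged from 6.64 to 7.80. H3c13, H3c14, H3c6 and H3c4 ranged from 10.68 to 11.50, 9.99 to 10.85, 8.65 to 9.28 and 8.47 to 9.00, and H3c7 and H3c8 from 5.71 to 6.53 and 5.59 to 6.11. The probes of H3c14 disagreed. The brighter one lay at 58.1% of the SC mean on array 1 labelled BICC1_3, while a dimmer one detected on all arrays lay 0.60 log2 above its SC mean. H1f2, the detected linker histone of the clusters, ranged from 12.10 to 12.60. It lay at 0.04, 0.06 and 0.07 log2 on the 3 arrays that were low for H2A, and its highest value came from array 2 labelled BICC1_3. On those arrays H1f2 lay 0.16 log2 above SC (95% interval -0.02 to 0.35, adjusted p = 0.573).

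The 4 detected variants have different roles. H2az1 encodes H2A.Z, found at gene starts, H3f3a and H3f3b both encode H3.3, deposited outside replication, and H1f10 encodes a linker histone. H2az1 gave log2 intensities of 12.60, 12.68, 12.64 and 12.59 on SC replicates 1 to 4, 12.43, 12.60, 12.63 and 12.33 with BICC1_1, 12.59, 12.63, 12.73 and 12.66 with BICC1_2 and 12.06, 12.53, 12.43 and 12.64 on the arrays labelled BICC1_3. Array 1 labelled BICC1_3 and array 4 of BICC1_1 were the lowest. H2az1 averaged 12.63 ± 0.04 (SD, n = 4) in SC and 12.50 ± 0.14, 12.65 ± 0.06 and 12.41 ± 0.25 in the siRNA groups. Differences of H2az1 from SC were -0.13, 0.02 and -0.22 log2 (SE 0.10, adjusted p = 0.941, 1.00 and 0.545). H3f3b gave log2 intensities of 12.78, 12.83, 12.76 and 12.81 on SC replicates 1 to 4, 12.71, 12.76, 12.60 and 12.81 with BICC1_1, 12.76, 12.83, 12.76 and 12.83 with BICC1_2 and 12.52, 12.87, 12.87 and 12.61 on the arrays labelled BICC1_3. The groups overlapped throughout. H3f3b averaged 12.80 ± 0.03 (SD, n = 4) in SC and 12.72 ± 0.09, 12.80 ± 0.04 and 12.72 ± 0.18 in the siRNA groups. Differences of H3f3b from SC were -0.07, 0.00 and -0.08 log2 (SE 0.08, adjusted p = 0.967, 1.00 and 0.718). H3f3a gave log2 intensities of 12.17, 12.15, 12.24 and 12.11 on SC replicates 1 to 4, 11.95, 12.01, 12.25 and 11.92 with BICC1_1, 12.27, 12.21, 12.41 and 12.22 with BICC1_2 and 11.82, 12.19, 12.05 and 12.13 on the arrays labelled BICC1_3. With BICC1_1, array 3 lay above the SC range and the other 3 arrays below it. H3f3a averaged 12.17 ± 0.05 (SD, n = 4) in SC and 12.03 ± 0.15, 12.27 ± 0.09 and 12.05 ± 0.16 in the siRNA groups. Differences of H3f3a from SC were -0.14, 0.11 and -0.12 log2 (SE 0.09, adjusted p = 0.913, 1.00 and 0.635). Without the 3 arrays H3f3a lay 0.21 log2 below SC with BICC1_1 (SE 0.05, adjusted p = 0.213) and 0.27 below BICC1_2 (SE 0.06, adjusted p = 0.0671). A further H3f3a probe gave -0.27, -0.11, -0.32 and -0.45 on the 4 BICC1_1 arrays, of which 3 lay below its SC range. On array 3 of BICC1_1 the main probe lay at 0.08. With BICC1_2 the further probe lay at -0.22, 0.17, -0.15 and -0.20, and the main one at 0.10, 0.04, 0.24 and 0.05. The probes thus differed in sign on some arrays.

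H1f10 gave log2 intensities of 8.73, 8.59, 8.54 and 8.35 on SC replicates 1 to 4, 8.44, 8.49, 7.97 and 8.58 with BICC1_1, 8.49, 8.51, 8.32 and 8.39 with BICC1_2 and 7.84, 8.58, 8.43 and 8.85 on the arrays labelled BICC1_3. The SC arrays themselves spread over much of the range of H1f10. H1f10 averaged 8.55 ± 0.16 (SD, n = 4) in SC and 8.37 ± 0.27, 8.43 ± 0.09 and 8.42 ± 0.43 in the siRNA groups. Differences of H1f10 from SC were -0.18, -0.12 and -0.13 log2 (SE 0.17, adjusted p = 0.963, 1.00 and 0.784). Its further probe lay at -0.63 on replicate 1 and at 0.27, 0.42 and 0.58 on the other arrays labelled BICC1_3. The main probe lay at -0.71, 0.03, -0.12 and 0.29 on replicates 1 to 4 there, so the probes differed in sign on replicate 3. In the mean of the siRNAs the further probe lay at 0.03, against -0.14 for the main one. The place of H1f10 below SC thus depends on the probe. Other histone genes, whose symbols lack the prefixes, were read for comparison. H2ax, the variant phosphorylated at DNA breaks, lay between -0.19 and 0.13 log2 on all 16 arrays, and at -0.12, -0.08 and -0.13 on the 3 arrays low for clustered H2A. Macroh2a1, which carries a large non-histone domain, lay at 0.22, 0.34 and 0.18 there, and H2aj at 0.22, 0.13 and 0.12. Cenpa, the centromeric H3, lay at -0.24, -0.14 and 0.05. None of these 4 genes passed the test against SC for any siRNA, with adjusted p from 0.705 to 1.00.

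Array by array, the gap between replication-dependent and variant medians was widest where H2A was low. It lay at -0.42 log2 on array 3 of BICC1_1, -0.41 on array 1 labelled BICC1_3 and -0.19 on array 3 of BICC1_2, and between -0.07 and 0.08 on the other 13. On array 1 labelled BICC1_3 the variants were low as well (median -0.46), while on array 3 of BICC1_1 they stood at -0.10. With the H2A family left out, the replication-dependent medians were -0.10, 0.08 and -0.17 with BICC1_1, BICC1_2 and on the arrays labelled BICC1_3, against -0.14, 0.03 and -0.25 with it. Without the 3 arrays the medians with H2A left out were -0.02, 0.11 and -0.01, so those below SC moved close to 0. This choice was made after the data were seen. On the other 9 siRNA arrays the median of all replication-dependent genes lay between -0.09 and 0.08.

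The medians of cell cycle genes stayed near SC on the arrays where clustered H2A was low, over members that went both ways. The median of 42 S phase and DNA replication genes lay at -0.07, -0.07 and -0.08 log2 on array 1 labelled BICC1_3, array 3 of BICC1_1 and array 3 of BICC1_2, where H2A lay at -2.50, -1.67 and -0.71. The single S phase genes ran from -1.35 to 1.14, -0.71 to 0.66 and -0.60 to 0.43 there, with 20, 18 and 20 of 42 below the lowest SC array. On the other siRNA arrays 4 to 29 of the 42 were. Among all 9560 genes the counts were 3659, 3317 and 2771 on the 3 arrays and 1747 to 2856 on the other siRNA arrays. The lowest S phase median, -0.18, came from array 4 of BICC1_2, where H2A lay at -0.28 and H2B at 0.21. The median of 20 G2 and mitosis genes lay at 0.01, -0.05 and -0.05 on the 3 arrays, and lowest, at -0.15, on array 2 labelled BICC1_3, where H2A lay at -0.16. By siRNA, the S phase medians were 0.00, -0.06 and -0.05 with BICC1_1, BICC1_2 and on the arrays labelled BICC1_3, and the mitosis medians -0.06, -0.05 and -0.06. In the mean of the siRNAs the median over all genes was -0.001 log2. Below 0 there lay 28 of the 42 S phase genes and 16 of the 20 mitosis genes, with 0 of either past the test. The genes with the largest mean differences were Ccne2 (0.25), a cyclin gene whose product drives entry into S phase and histone gene transcription, Ung (-0.24), a uracil-DNA glycosylase, and Mcm10 (-0.18), a replication initiator, and in mitosis Ube2c (-0.22), Tpx2 (-0.18) and Bub1b (-0.16), with adjusted p of 0.789 or more. Ccne2 stood highest on the arrays where H2A was lowest, at 1.14 on array 1 labelled BICC1_3 and at 0.66 on array 3 of BICC1_1. On array 3 of BICC1_2 it lay at 0.43, and on the other 13 arrays between -0.25 and 0.42. Ung went the other way on these 3 arrays, at -0.86, -0.63 and -0.53, against -0.29 to 0.12 on the other 13. So did Mcm10, at -0.51, -0.55 and -0.48, against -0.22 to 0.11. Of 13 cyclin-dependent kinase inhibitor and quiescence genes 8 lay above 0 in the mean, and Cdkn1c, which holds cells out of the cycle, lay at 0.25, 0.39 and 0.34 with BICC1_1, BICC1_2 and on the arrays labelled BICC1_3 (lowest adjusted p = 0.0977). Cdkn2a and Ccng2 lay at -0.26 and 0.17 in the mean.

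**Figure D3:**
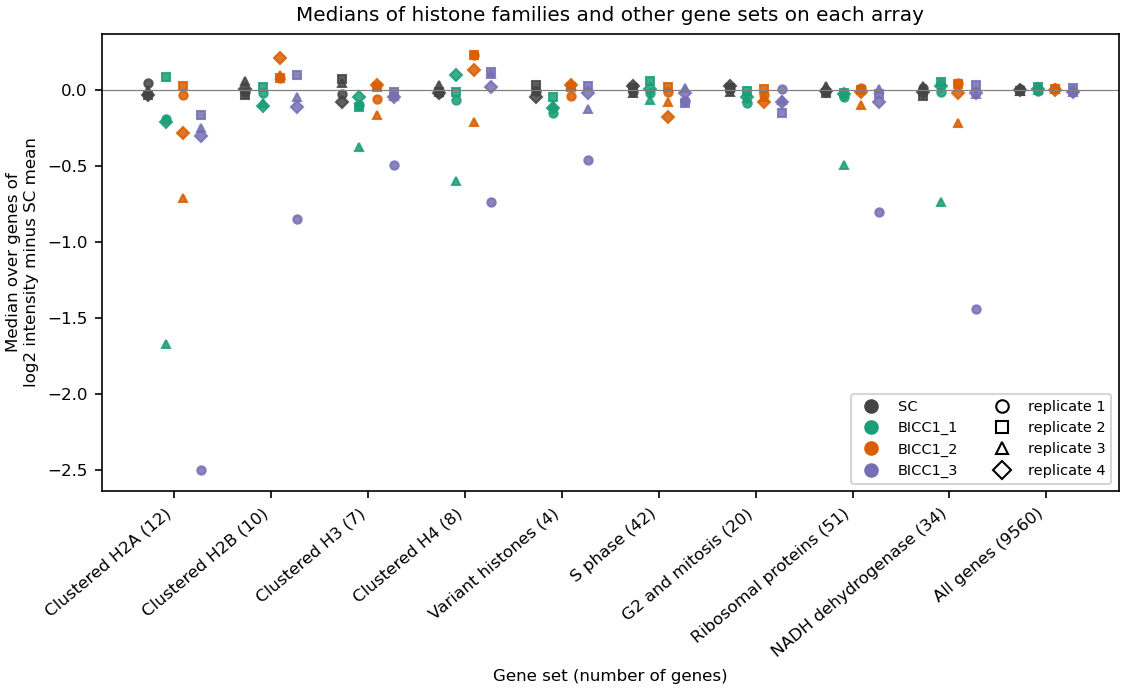
Each point is an array and gives the median over the genes of a set of the log2 intensity minus the SC mean, with colour for the siRNA and shape for the replicate. H2A reaches -2.50 and -1.67 on the 2 lowest arrays, ribosomal protein and NADH dehydrogenase genes are low on the same arrays, and the S phase and mitosis medians stay between -0.18 and 0.06 on all 16.

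Genes that make, process and carry histones were also compared. Of 16 tested genes of histone mRNA processing and transcription, 7 lay below 0 in the mean of the siRNAs, with a median of 0.03 log2 and 0 past the test. Among them Srrt, which links the cap-binding complex to 3′ end processing, lay at -0.18 and the transcription factor gene E2f3 at -0.13. Slbp, whose product binds the histone stem-loop, was not among the genes tested. Of 20 histone chaperone and deposition genes 17 lay below 0 (median -0.04, against -0.001 over all genes), again with 0 past the test. Nasp, a chaperone of H3 and H4 with a role in holding a soluble histone store, had the largest difference. It lay at -0.77 on array 3 of BICC1_1, -0.52 on arrays 3 and 4 of BICC1_2 and -0.49 on array 1 labelled BICC1_3, and between -0.25 and 0.20 on the other 12 arrays. The 3 arrays low for H2A were thus among the 4 lowest for Nasp. The median of the 20 chaperone and deposition genes did not set these arrays apart. It lay at -0.004, -0.016 and -0.071 on array 1 labelled BICC1_3, array 3 of BICC1_1 and array 3 of BICC1_2. On the other 13 it lay between -0.17 and 0.03. Against SC, Nasp differed by -0.24, -0.28 and -0.21 (SE 0.17, adjusted p = 0.934, 1.00 and 0.656). Daxx and Hira, which deposit H3.3, lay at -0.19 and -0.15 in the mean. On the same 3 arrays Daxx lay at -0.55, -0.57 and -0.51, against -0.18 to 0.06 on the other 13. Hira lay at 0.42, -0.07 and -0.05 there, against -0.35 to 0.10 on the other 13. Of 8 high mobility group and heterochromatin protein genes 5 lay below 0 (median -0.05), with Hmgn3 at -0.14, Hmgb2 at -0.11 and Cbx1 at -0.10.

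Between siRNAs, 0 of 42 histone genes passed the test in any pair. Of all genes 0.282% passed for BICC1_1 against BICC1_2, 0.0732% for BICC1_1 against the arrays labelled BICC1_3 and 0.115% for BICC1_2 against the arrays labelled BICC1_3. BICC1_2 lay above the arrays labelled BICC1_3 by most in H2A genes, up to 0.66 log2 in H2ac11 (SE 0.54, adjusted p = 0.729), a difference of 0.14 without the 3 arrays. Several H2B genes differed by less but with lower p-values. H2bc14 differed by 0.43 log2 (SE 0.18, adjusted p = 0.557), H2bc9 by 0.39 (SE 0.16, adjusted p = 0.526), H2bc7 by 0.38 (SE 0.14, adjusted p = 0.484) and H2bc18 by 0.27 (SE 0.09, adjusted p = 0.445). Without the 3 arrays H2bc14, H2bc7 and H2bc9 differed by 0.12, 0.18 and 0.19 and H2bc18 by 0.25, the last with adjusted p = 0.332. H3f3a was lower with BICC1_1 than with BICC1_2 by 0.24 (SE 0.09, adjusted p = 0.529), and H3c7 by 0.34 (SE 0.14, adjusted p = 0.637).

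Leaving out the 3 arrays narrowed the intervals and shrank the H2A differences. The H2A medians went from -0.53, -0.26 and -0.83 to -0.11, -0.11 and -0.25 log2 with BICC1_1, BICC1_2 and on the arrays labelled BICC1_3. The H2B medians went from -0.05, 0.12 and -0.25 to -0.05, 0.12 and -0.02, the H3 medians from -0.14, -0.04 and -0.19 to -0.06, 0.01 and -0.05, and the H4 medians from -0.13, 0.10 and -0.15 to 0.00, 0.18 and 0.08. H4 genes thus lay above SC by median on the arrays labelled BICC1_3 once replicate 1 was left out. No histone gene passed the test in any comparison without the 3 arrays, and the lowest adjusted p against SC were 0.213, 0.109 and 0.159, for H3f3a, H2ac18 and H2ac18.

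**Figure D4:**
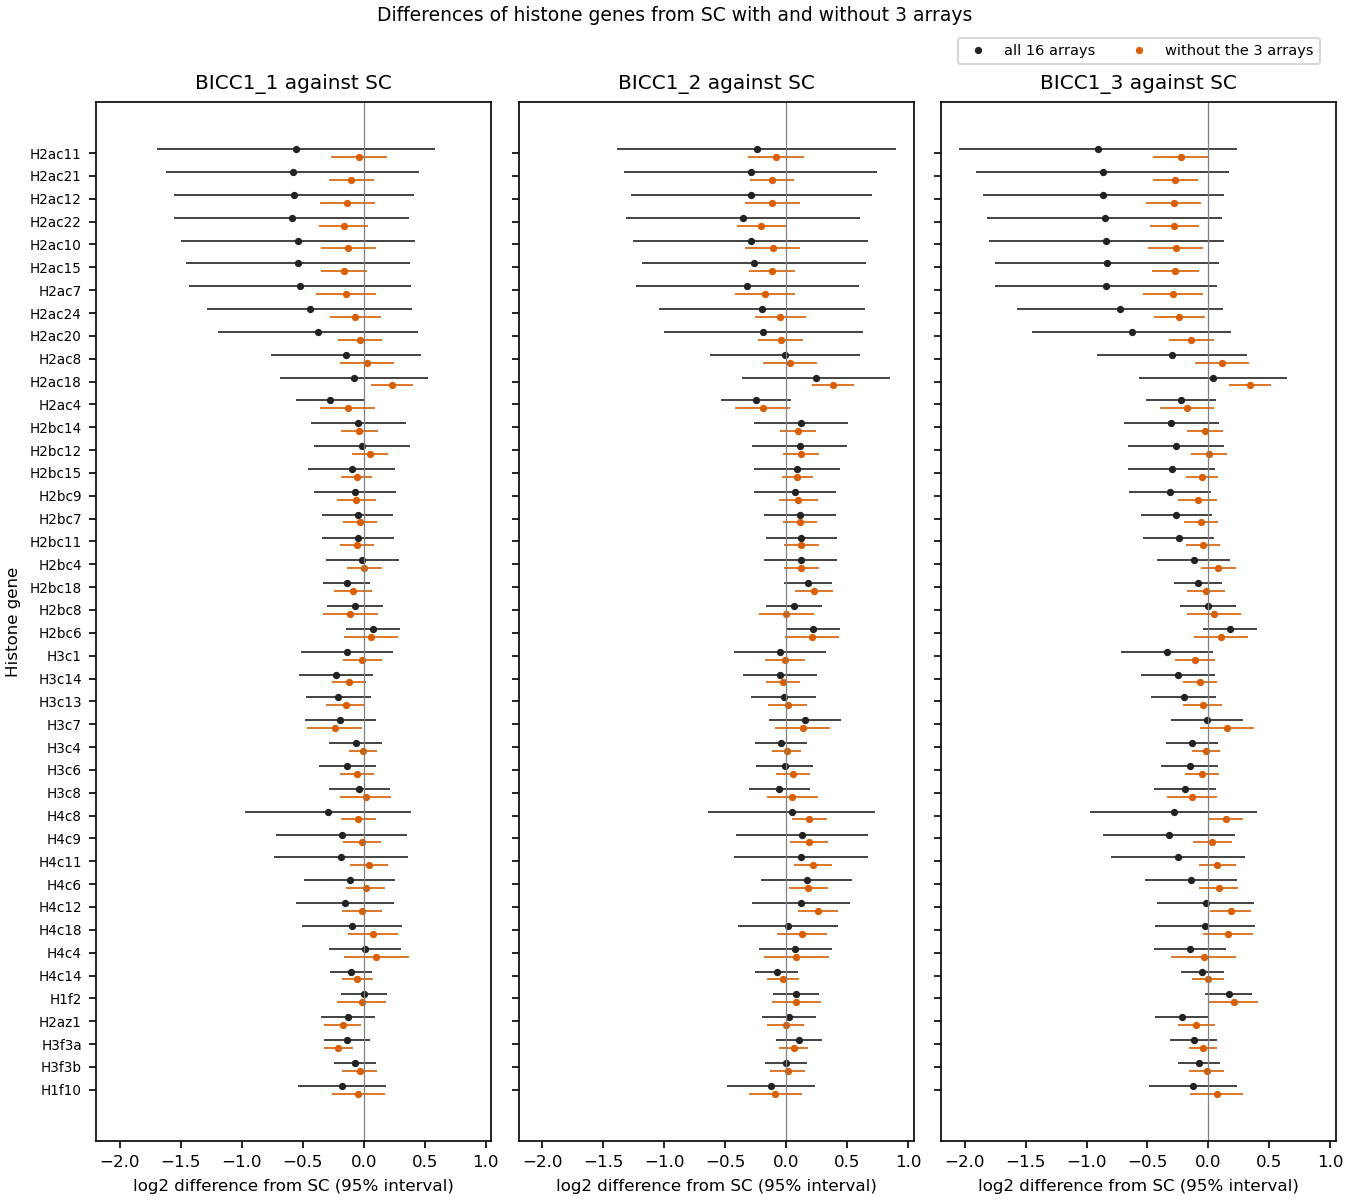
For each histone gene the point gives the log2 difference from SC and the line its 95% interval from limma's fit, in black for all 16 arrays and in orange without the 3 arrays. The H2A intervals are the widest with all arrays and become narrow without the 3, with most points closer to 0. The H2A median of the arrays labelled BICC1_3 then still lies at -0.25 log2. H2ac18 then lies above 0 in the panels of all 3 siRNAs.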

How the data were processed

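Bead intensities of 25697 probes on 16 Illumina arrays were deposited by the authors without normalisation, beside a detection value that runs as a fraction from 0 to 1 per the file headers and the values. The authors' deposited value table was read as log2 and quantile-normalised from its values, and it served as an alternative. Per the submitters' processing notes GenomeStudio was used, without a version. Intensities were background-corrected and quantile-normalised with neqc (offset 16) in limma 3.58.1 (R 4.3.3). Probes with 1 minus the detection value under 0.05 on at least 4 arrays were kept (12802), and the probe with the highest mean stood for its gene. One model with the 4 groups was fitted with lmFit and eBayes to all 9560 genes or unnamed probes. The median SE was 0.108 log2 for 1 siRNA, and 4 arrays per group limit the precision. Histone genes were classed as replication-dependent or variant by their older symbols in RefSeq, which moved H1f2 to the replication-dependent class, against the design written at the outset. All 16 values were given, in each class, for the 4 genes with the largest mean difference, the 4 with the lowest unadjusted p for 1 siRNA and the 3 with the highest mean level. Of each other list the 3 largest mean differences were to be named. H2ac18, the divergent pairs and other genes singled out were chosen after their values were seen. The members, gene lists and the 3 arrays left out were chosen with earlier results of these data known. The fit was tested on simulated data. Alternatives were median scaling, another offset, no background correction, other probe and detection rules, array weights, separate fits, the authors' table, a replicate block and leaving out arrays.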

Additional observations from a re-analysis of the deposited data

Results flagged for a closer look

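Within groups of 4, 19 of 92 groups checked held an array far from its fellows by Dixon's criterion. Some of the genes checked were picked for large differences in these data, and members of a family share probes and arrays. The chance rate of about 1 in 20 is therefore no yardstick here. Of the 19, 11 were array 1 labelled BICC1_3, 6 were array 3 of BICC1_1, 1 was array 3 of BICC1_2 and 1 was an SC array. On array 1 labelled BICC1_3, H2ac11 lay at -2.93 log2 from the SC mean, H2ac21 at -2.66, H2ac12 at -2.60, H2ac22 at -2.56, H2ac24 at -2.18, H2ac20 at -2.09 and H2bc4 at -0.73. The medians there were -0.87 for all replication-dependent genes, -2.50 for H2A, -0.49 for H3 and -0.73 for H4. On array 3 of BICC1_1, H2ac21 lay at -2.03, H2ac12 at -1.88, H2ac22 at -1.87, H2ac24 at -1.57 and H2ac20 at -1.41, and the H2A median at -1.67. On array 3 of BICC1_2 the median of replication-dependent genes lay at -0.16. On array 3 of SC the H4 median lay at 0.032 log2, while the other SC arrays lay between -0.02 and -0.01.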

How the results depend on the processing

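No histone gene passed the test in any of the 7 comparisons under any of 27 alternatives, of which 16 left out 1 array each. The median of replication-dependent genes ran from -0.19 to -0.04 log2 with BICC1_1, -0.01 to 0.08 with BICC1_2 and -0.36 to -0.04 on the arrays labelled BICC1_3, and the H2A median, added after the data were seen, from -0.72 to -0.11, -0.35 to -0.11 and -1.04 to -0.25. Over all genes the counts past the test ran from 0 to 30, 2 to 60 and 0 to 14 (2, 5 and 1 as reported), from 0 to 26 for the mean (1), and between siRNAs from 2 to 71 (27), 0 to 10 (7) and 2 to 19 (11). Correlations of the deviations of same-numbered arrays ran from -0.594 to 0.609, 9 of 24 over 0.1. The highest was between array 3 of BICC1_1 and array 3 of BICC1_2. Arrays of different numbers were not compared, so whether replicate numbers pair the arrays was not tested. With a replicate block the all-gene counts were 1, 6, 4 and 1 against SC and 6, 2 and 6 between siRNAs, with 0 histone genes.

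With median scaling the S phase and mitosis medians for BICC1_2 were 0.00118 and 0.00576, and with no detection filter the mitosis median of the siRNA mean was -0.0256. With 1 array left out, the BICC1_2 mitosis median ran from -0.0789 to -0.00385, depending on the array. Of 1616 gene values 33 changed sign, all for differences reported between -0.13 and 0.08. With BICC1_1, H2bc4 was 0.0102 with median scaling and 0.00519 without the 3 arrays. With BICC1_2, H2az1 was -0.00268 without the 3 arrays. On the arrays labelled BICC1_3, H2bc4 was 0.0503 with array weights and 0.0817 without the 3 arrays, and H1f10 was 0.016 with the mean of kept probes, 0.0769 with array weights and 0.0681 without the 3 arrays. In the siRNA mean, H2bc18 was 0.0312 with median scaling, 0.0345 with array weights and 0.0403 without the 3 arrays, and H2bc4 was 0.0435 and 0.0707 under the last 2. With single arrays left out, values for BICC1_1 ran from -0.0129 to 0.139 in H2bc6 and from -0.0310 to 0.0143 in H2bc4. For BICC1_2 they ran from -0.00268 to 0.0450 in H2az1 and from -0.0115 to 0.0148 in H3f3b. For the arrays labelled BICC1_3 they ran from -0.205 to 0.0817 in H2bc4 and from -0.267 to 0.0681 in H1f10. For the mean they ran from -0.0422 to 0.00643 in H2bc18 and from -0.0324 to 0.0631 in H2bc4. The cause of these changes was not tested.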
